A study of Mus musculus with 38 samples.

Results

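Messenger RNA of 8uvmo-2 and 8uvmo-3, a pair of mouse CD8 T cell clones that carry the same phenotype label (CD8IL13-, written here as IL13-negative), was compared after 14 h on immobilised anti-CD3 antibody. The comparison rests on 8 of the 38 arrays of the series, chosen by their titles: 4 arrays of activated 8uvmo-2 and 4 of activated 8uvmo-3. The antibody, 145-2c11, had been coated onto culture plates at 0.5 ug/ml. It crosslinks the CD3 chains of the T cell receptor and so stimulates a clone without its antigen. The remaining arrays hold the same clones in a dormant state and 3 further clones in both states: sAg1 and sAg3, which are labelled IL13+ and called CD8γ13 in the design text, and CD8bm1, an alloreactive clone. The 8uvmo pair has no other label, and by elimination is what the design text calls Tc1 clones. Each group is 1 clone, so a difference between the groups holds for these clones and not for a class of cells. The labels do not state mouse strain, sex and age and the antigen of the 8uvmo clones.

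An activated CD8 T cell secretes cytokines such as interferon gamma and tumour necrosis factor, releases granzymes and perforin, and displays activation-induced and inhibitory receptors. Clones of 1 phenotype class can still keep their own sets of receptors, homing molecules and accessory cytokines from one restimulation to the next, and IL-10, IL-3 and GM-CSF are among the products in which T cell clones are known to vary.

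Levels are deposited log2 probe set values, so a difference of 1 is a doubling. Differences are 8uvmo-2 minus 8uvmo-3 throughout, with the standard error (SE) of a limma fit over all 38 arrays, and errors of group means are standard deviations (SD, n = 4 arrays). The word called means an adjusted p (Benjamini-Hochberg over all tested probe sets) under 0.05 together with a difference of at least 1 in size. Levels below 7, near the median of all values on these arrays (7.06), were treated as near background. Folds with the lower clone below 7 were computed against 7 and are written as at least that size. Nothing in the labels says that the 4 arrays of a group are separate cultures. The p-values therefore speak only to spread from array to array, part or all of which may be technical.

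The arrays of activated 8uvmo-2 correlated with each other at 0.9926 to 0.9973, those of activated 8uvmo-3 at 0.9934 to 0.9977, and arrays of different clones at 0.9759 to 0.9814. Array medians ran from 7.03 to 7.09 and from 7.05 to 7.08. Those of the dormant arrays were lower, 6.63 to 6.69 in 8uvmo-2 and 6.65 to 6.7 in 8uvmo-3. The limit of 7 lies near the activated medians, and a shift of scale between the states was not tested. In activated 8uvmo-3, replicates 1 and 3 were most alike (0.9971), as were replicates 2 and 4 (0.9977). With replicates 2 and 4, replicate 1 correlated at 0.9934 and 0.9938 and replicate 3 at 0.9966 and 0.9961, so replicate 3 was less clearly apart. The value without one of these sets is given beside a called gene or a list where leaving it out ended the call or moved the difference or the total count past the test by over 1.5 times. Dormant 8uvmo-2 split further, with 0.9974 and 0.9973 within the same sets and 0.9858 to 0.9894 across them. Both activated clones carried the labelled cell type: Cd8a and Cd8b1 lay between 11.78 and 12.76 (both means), and 8 of 9 measured T cell markers were above 7. All 4 NK cell and all 5 B cell markers were below 7 in both clones, as were 5 of 6 macrophage, 3 of 4 dendritic cell and 4 of 7 epithelial and stromal markers. Of the 2 CD4 T cell markers, 0 were below 7 in both clones: Cd4 averaged 8.09 in 8uvmo-2 against 6.44, and Zbtb7b, the transcription factor of the CD4 lineage, 8.45 against 7.55 (0.89 ± 0.077, adjusted p = 2.02e-11).

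The activated clones differed by at most 0.09 in Ifng, Ccl3, Xcl1 and Gzmb, signature products of a cytotoxic T cell, and by up to 6.14 in accessory cytokines and surface receptors. Il10 and Il3 were the genes with the largest excess in 8uvmo-2, at differences of 5.76 ± 0.19 and 5.20 ± 0.18. The receptor genes Klra5, Adgre5 and Cxcr6 stood far higher in 8uvmo-3, at -6.14 ± 0.21, -5.68 ± 0.11 and -5.13 ± 0.19. Of 23410 probe sets tested, 725 (3.1%) were called, 389 higher in 8uvmo-2 (1.66%) and 336 lower (1.44%), and 712 of the 725 had no overlap between the arrays of the clones. Over all probe sets, 25.7% had no overlap. Among the called, 56 differed by at least 3, and 359 had a clone below 7. A stricter test, limma's treat, asks whether a difference exceeds 1. It was not passed (adjusted p from 0.0597 to 1) by 32 of the 92 called genes that the text names by rule. These are the cytokine and chemokine genes Il2, Il13, Ebi3, Ccl5, Ccl12 and Ccl20, the receptor genes Cd69, Ctla4, Entpd1, Eda2r, Tnfrsf18, Ifngr1, Tgfbr2, Klra6 and Klrb1f, the factor genes Nr4a1, Klf6, Myb and Pou2af1, and H2-Aa, H2-Ab1, H2-T24, Mx1, Gzmn, Cpa3, Hpgds, Hmgcs1, Slc1a4, Serpinb1b, Timp1, Lum and Dcn. In bulk RNA, fewer cells with a transcript and less of it per cell cannot be told apart.

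**Figure D1:**
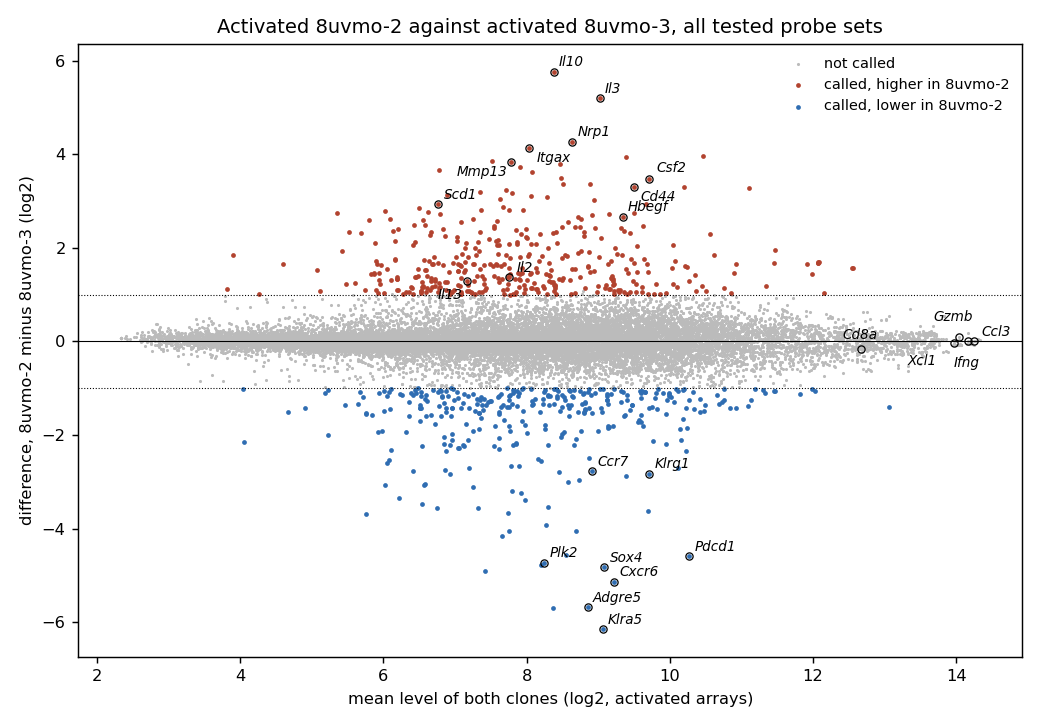
Difference between activated 8uvmo-2 and activated 8uvmo-3 (y axis, log2) against the mean level of both clones (x axis, log2) for each of 23410 tested probe sets. Red points are the 389 called higher in 8uvmo-2, blue points the 336 called lower, dotted lines mark a difference of 1 in either direction, and ringed points are named genes. The differences run from -6.14 (Klra5) to 5.76 (Il10), while Ifng, Ccl3, Xcl1 and Gzmb sit at the zero line at the right edge.

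Cytokine and growth factor genes leaned towards 8uvmo-2. This list, like the others, was chosen with earlier results of these data known, which can shape a lean. At an adjusted p under 0.05 without a minimum difference, which 26.1% of all probe sets passed (14.1% higher in 8uvmo-2 and 12% lower), 14 of the 29 measured members were higher in 8uvmo-2 and 3 lower, with a median difference of 0.37. Over all 19938 genes tested, 2851 were higher and 2370 lower, with a median of -0.01. The list counts of the activated comparison that follow use the same threshold and stand beside these same shares.

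Il10, the gene of the cytokine that restrains macrophages and dendritic cells and a member of the type 2 list described further on, read 11.20, 11.70, 11.04 and 11.09 in activated 8uvmo-2 and 5.46, 5.88, 5.14 and 5.51 in activated 8uvmo-3. The lowest 8uvmo-2 array thus lay more than 5 log2 units above the highest 8uvmo-3 array. The mean was at least 19.1-fold higher in 8uvmo-2 (limma, adjusted p = 1.5e-22). In the dormant state both clones were below 7, at 5.61 and 4.79, so the gap opened with activation, and this change of the difference was 4.94 ± 0.27 (adjusted p = 1.82e-15). Activated means of the remaining clones were 10.96 in sAg1, 9.67 in sAg3 and 10.08 in CD8bm1, which places 8uvmo-3 lowest of the 5 clones.

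Il3 encodes a growth factor of mast cells, basophils and early haematopoietic cells. Its levels were 11.78, 11.86, 11.61 and 11.23 in 8uvmo-2 against 6.58, 6.33, 5.75 and 7.02 in 8uvmo-3, again without overlap. That is at least 24.6-fold (adjusted p = 5.29e-22), and the dormant means were 4.26 and 4.16 (adjusted p = 0.772). Csf2, which encodes GM-CSF, the growth factor of granulocytes and macrophages, read 11.79, 11.82, 10.87 and 11.29 in 8uvmo-2 and 6.77, 8.83, 7.51 and 8.82 in 8uvmo-3. All 8uvmo-2 arrays were above all 8uvmo-3 arrays, while the 8uvmo-3 arrays themselves spread widely (SD 1.02), with replicates 2 and 4 the higher. The difference was 3.46 ± 0.27, or 11-fold (adjusted p = 2.45e-12), and had widened from 1.41 in the dormant state by 2.05 ± 0.39 (adjusted p = 0.000211).

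Il3 and Csf2 are neighbours on chromosome 11, with 0 measured genes between them, and both transcripts were higher in the same clone. Their upstream sequences are shown for that reason. The promoters of Mmp13 and Plk2 are shown beside them because the difference of each of these genes opened with activation, towards 8uvmo-2 for Mmp13 and towards 8uvmo-3 for Plk2. Each line gives the 250 bases before the RefSeq start of the gene in GRCm38.p6, 5′ to 3′ on the gene's strand. Capitals mark matches, on either strand, to TGANTCA (the form bound by AP-1), TGACGTCA (the form bound by CREB and ATF factors), GGAAA or its reverse complement TTTCC (the core of NFAT sites) and TATAAA. The positions are chr11:54267280-54267529 (minus strand) for Il3, chr11:54249900-54250149 (minus strand) for Csf2, chr9:7272264-7272513 (plus strand) for Mmp13 and chr13:110394794-110395043 (plus strand) for Plk2.
Il3: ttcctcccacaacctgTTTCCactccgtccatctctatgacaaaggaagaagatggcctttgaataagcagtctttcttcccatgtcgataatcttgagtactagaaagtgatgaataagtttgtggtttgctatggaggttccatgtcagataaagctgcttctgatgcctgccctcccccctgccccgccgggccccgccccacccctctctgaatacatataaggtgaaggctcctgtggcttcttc
Csf2: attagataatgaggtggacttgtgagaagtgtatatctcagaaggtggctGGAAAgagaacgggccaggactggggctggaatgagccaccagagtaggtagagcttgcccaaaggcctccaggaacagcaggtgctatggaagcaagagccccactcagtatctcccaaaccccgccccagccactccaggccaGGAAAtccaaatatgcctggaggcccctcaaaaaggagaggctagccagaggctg
Mmp13: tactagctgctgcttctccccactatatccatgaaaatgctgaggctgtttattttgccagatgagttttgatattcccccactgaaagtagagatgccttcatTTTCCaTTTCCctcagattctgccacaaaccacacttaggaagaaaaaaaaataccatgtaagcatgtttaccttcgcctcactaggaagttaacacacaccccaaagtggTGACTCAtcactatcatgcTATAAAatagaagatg
Plk2: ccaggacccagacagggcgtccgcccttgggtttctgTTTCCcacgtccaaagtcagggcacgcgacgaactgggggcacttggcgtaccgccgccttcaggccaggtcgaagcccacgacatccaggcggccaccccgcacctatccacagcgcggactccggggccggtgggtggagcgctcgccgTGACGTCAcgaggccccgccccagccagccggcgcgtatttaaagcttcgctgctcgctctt
None of the matches in the 4 windows overlapped another. TGANTCA occurred 1 time, in Mmp13, starting 35 bases before the start, and 6.75% of 32851 promoter windows of that length hold it. TGACGTCA occurred 1 time, in Plk2, starting 62 bases before the start, against 1.55% of windows. GGAAA on either strand was found 1 time in Il3, 2 times in Csf2, 2 times in Mmp13 and 1 time in Plk2, and 55.6% of all windows hold at least 1. TATAAA was present in Mmp13, 16 bases before the start, as in 12.4% of windows. These are letter matches and were not tested as binding sites.

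Il2, the T cell growth factor, was higher in 8uvmo-2 as well, at a modest level: 8.48, 9.38, 7.94 and 7.97 against 6.63, 7.59, 6.81 and 7.23. The arrays of the clones did not overlap, and the difference was 1.38 ± 0.20, or 2.6-fold (adjusted p = 1.1e-06). Il13, whose product the labels deny to both clones, read 7.92, 7.82, 7.88 and 7.62 in 8uvmo-2 and 6.68, 6.44, 6.46 and 6.51 in 8uvmo-3. The clones did not overlap and differed by 1.29 ± 0.20 (adjusted p = 3.61e-06), at least 1.75-fold. For comparison, the activated IL13+ clones averaged 9.51 (sAg1) and 12.78 (sAg3), and CD8bm1 averaged 6.60. Il4 and Il5, the other classical type 2 cytokine genes, were below 7 in both clones.

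Growth factors for other tissues followed the same direction. Hbegf, which encodes a ligand of the epidermal growth factor receptor, averaged 10.67 ± 0.21 in 8uvmo-2 and 8.01 ± 0.35 in 8uvmo-3 (6.32-fold). Its log2 difference was 2.66 ± 0.12 after activation and 0.66 in the dormant state. Pdgfa, a growth factor of connective tissue cells, averaged 10.26 ± 0.12 against 7.56 ± 0.04 (6.48-fold). The other 3 clones lay between 7.48 and 7.62 for Pdgfa. Among list members named after their values were seen, Il1a (7.40 against 5.00) and Inhba, which encodes an activin subunit (12.74 against 11.09), were higher in 8uvmo-2 and Il18 (5.80 against 7.40) was lower. The difference of Inhba was 1.66, and 1.04 without replicates 1 and 3 of 8uvmo-3. Ebi3, a subunit shared by IL-27 and IL-35, was higher in 8uvmo-2 by 1.66 ± 0.25, with replicate 3 of 8uvmo-2 above the other arrays of its group (8.99 against 8.04 to 8.15).

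The main products of cytotoxic T cells differed little between the clones. Ifng averaged 14.17 ± 0.04 in both clones, Ccl3 14.25 ± 0.02 in both, and Xcl1 13.96 ± 0.05 against 13.99 ± 0.05. Gzmb averaged 14.08 ± 0.03 against 13.99 ± 0.01. Differences for these 4 genes ran from -0.04 to 0.09, and none passed the test (adjusted p from 0.421 to 0.997). The Gzmb arrays did not overlap all the same, at 14.04 to 14.12 against 13.98 to 14.01. The highest value on any of these arrays was between 14.31 and 14.39, so these genes sat near the top of the scale, where a difference can be compressed. Fasl (10.27 against 10.15), the death ligand, and Prf1 (13.66 against 13.32), the pore-forming perforin, lay lower on the scale and did not pass the test either (adjusted p = 0.641 and 0.159), although every Prf1 array of 8uvmo-2 was above those of 8uvmo-3 (13.57 to 13.74 against 13.20 to 13.42). Tnf passed it with a small deficit in 8uvmo-2, at -0.30 ± 0.11 and without overlap.

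**Figure D2:**
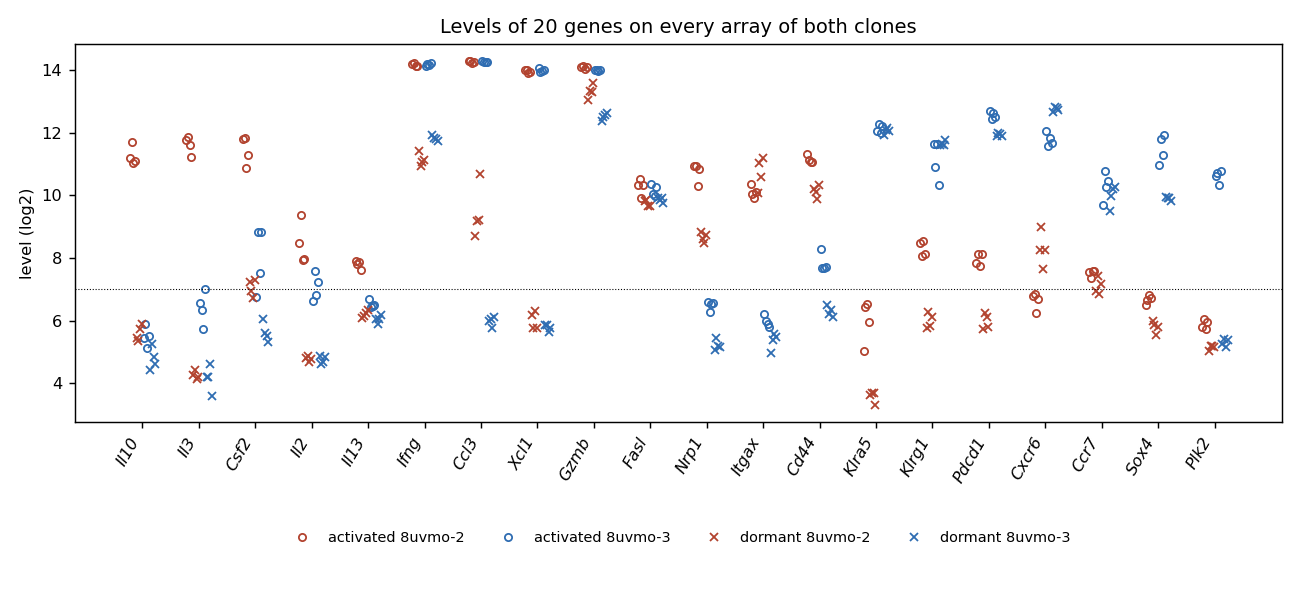
Level (y axis, log2) of 20 genes (x axis) on each array of both clones, with circles for activated and crosses for dormant arrays, red for 8uvmo-2 and blue for 8uvmo-3; the dotted line marks 7. Circles of the clones separate for Il10 (11.04 to 11.70 against 5.14 to 5.88), Il3 and Csf2, lie close together near 14 for Ifng, Ccl3, Xcl1 and Gzmb (means at most 0.09 apart), and separate in the opposite direction for Klra5, Klrg1, Pdcd1, Cxcr6, Ccr7, Sox4 and Plk2.

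Ligands of the TNF superfamily were more often lower in 8uvmo-2, 7 of 15 measured against 2 higher (median -0.10), or 3 against 2 without replicates 1 and 3 of 8uvmo-3. Tnfsf10, which encodes the death ligand TRAIL, averaged 7.08 ± 0.12 in 8uvmo-2 and 8.79 ± 0.17 in 8uvmo-3 (-1.70 ± 0.18). Tnfsf11, which encodes RANKL, a ligand that acts on osteoclast precursors and dendritic cells, averaged 8.71 ± 0.18 against 10.18 ± 0.07 (-1.47 ± 0.11). Tnfsf14, which encodes LIGHT, a costimulatory ligand, went the other way with 10.82 ± 0.29 against 9.24 ± 0.19 (1.58 ± 0.15). Dormant levels of Tnfsf14 were 6.23 and 6.25, and the change of its difference with activation was called (1.59 ± 0.21, adjusted p = 5.09e-07).

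Of 27 chemokine ligand genes, 4 were higher in 8uvmo-2 and 6 lower (median -0.02). Ccl5, which recruits T cells and monocytes, was lower in 8uvmo-2 at 12.65, 12.36, 12.19 and 12.24 against 13.62, 13.92, 13.70 and 13.77. The clones did not overlap, and the difference of -1.39 ± 0.35 was 2.63-fold (adjusted p = 0.00198). The neutrophil attractant Cxcl2 (7.35 ± 0.47 against 5.83 ± 0.03) and the Ccr6 ligand Ccl20 (7.75 ± 0.57 against 6.40 ± 0.14) were higher in 8uvmo-2, by 1.53 ± 0.14 and 1.36 ± 0.16. Ccl12 was called higher too, by 1.30 ± 0.19, with both means below 7.

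Receptors for chemokines and other homing signals gave some of the widest gaps in favour of 8uvmo-3. Of 29 measured, 6 were higher in 8uvmo-2 and 8 lower, beside 14.1% and 12% of all probe sets. Cxcr6, the receptor for CXCL16 that holds T cells in liver and other tissues, read 6.79, 6.85, 6.25 and 6.70 in 8uvmo-2 and 12.06, 11.57, 11.83 and 11.66 in 8uvmo-3. Every 8uvmo-2 array was below 7 and every 8uvmo-3 array above 11, a difference of at least 27.5-fold (adjusted p = 1.33e-21). The dormant difference was -4.47. Ccr7, which directs T cells to lymph nodes, read 7.56, 7.37, 7.59 and 7.60 against 9.69, 10.79, 10.28 and 10.46, so that 8uvmo-3 was 6.84-fold higher without overlap. Its dormant difference, -2.88, was close to the activated -2.77 ± 0.21, and the change between the states did not pass the test (adjusted p = 0.883).

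Ccr2, the receptor for inflammatory CCL2, separated with activation. Its dormant means were 10.88 and 11.15 (adjusted p = 0.486). After activation they were 6.90 ± 0.56 in 8uvmo-2 and 9.42 ± 0.14 in 8uvmo-3, at least 5.36-fold apart, and the change of the difference was -2.26 ± 0.33 (adjusted p = 4.96e-06). Gpr55, a lysophospholipid receptor, was higher in 8uvmo-2 with 10.22 ± 0.17 against 8.24 ± 0.72 (1.99 ± 0.18).

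Of 32 integrin and adhesion genes, 10 were higher in 8uvmo-2 and 6 lower (median -0.02). Itgax, which encodes CD11c and appears on activated CD8 T cells, read 10.35, 10.03, 9.91 and 10.12 in 8uvmo-2 and 6.20, 5.98, 5.89 and 5.79 in 8uvmo-3. The difference was 4.14 ± 0.18, at least 8.59-fold (adjusted p = 1.15e-19). It was wider in the dormant state, at 5.37, and the change was -1.23 ± 0.25 (adjusted p = 0.000457). For Itgax, the other activated clones averaged 8.65 in sAg1, 11.37 in sAg3 and 10.28 in CD8bm1. Cd44, the hyaluronan receptor that marks antigen-experienced T cells, read 11.33, 11.14, 11.05 and 11.05 against 8.29, 7.69, 7.68 and 7.71. Both clones were above 7, with 8uvmo-2 9.85-fold higher (3.30 ± 0.12, adjusted p = 4.54e-21). Cd44 was below 7 in dormant 8uvmo-3 (6.29) and at 10.13 in dormant 8uvmo-2. Activated means of the other clones were 11.30 in sAg1, 6.59 in sAg3 and 6.16 in CD8bm1.

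Cd226, the activating receptor DNAM-1, and Itgb7, an integrin chain used for gut homing, were lower in 8uvmo-2. Cd226 read 5.29, 5.61, 5.56 and 5.73 in 8uvmo-2 and 9.53, 9.02, 9.44 and 8.40 in 8uvmo-3, at least 4.28-fold. In the dormant state it was high in both clones (10.18 and 11.13), and the change of the difference was -2.60 ± 0.23 (adjusted p = 2.51e-10). Itgb7 averaged 8.04 ± 0.11 against 9.96 ± 0.67, a difference of -1.92 ± 0.21 that was -0.70 in the dormant clones.

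Lectin-like and NK receptors held the largest single difference. Of 33 measured, 7 were higher in 8uvmo-2 and 9 lower, beside 14.1% and 12% of all probe sets. With a minimum difference of 1 the counts were 0 and 5, beside 1.66% and 1.44%. Klra5, which encodes the Ly49-family receptor Ly49E, read 5.03, 6.45, 6.52 and 5.95 in 8uvmo-2 and 12.06, 12.27, 11.99 and 12.21 in 8uvmo-3. The clones lay at least 35.1-fold apart (-6.14 ± 0.21, adjusted p = 1.42e-22), with 8uvmo-2 below 7 on every array. The dormant difference was -8.48, with 8uvmo-2 at 3.58, so the size of both differences depends on values near background in that clone. CD8bm1 also carried Klra5 (11.77 after activation), whereas sAg1 and sAg3 were at 3.73 and 3.81.

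Klrg1, an inhibitory cadherin receptor of effector T cells, read 8.49, 8.05, 8.53 and 8.13 in 8uvmo-2 and 11.65, 10.90, 11.63 and 10.34 in 8uvmo-3, a 7.11-fold difference without overlap. The gap had narrowed from the dormant -5.67, by 2.83 ± 0.31 (adjusted p = 1.6e-08). Klri2, named after its value was seen, differed by -1.06 ± 0.10 at high levels (10.92 against 11.98), and Klra6 had both means below 7. Klrb1f, of the Nkrp1 family, was called at -1.17 ± 0.32, but its 8uvmo-3 arrays ran from 6.20 to 9.06 and overlapped those of 8uvmo-2. Without replicates 1 and 3 of 8uvmo-3 its difference was -0.10 (adjusted p = 0.844), without replicate 1 alone -0.65 (adjusted p = 0.0525), and without replicate 3 alone -0.98 (adjusted p = 0.0293).

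Among inhibitory receptors, 3 of 22 were higher in 8uvmo-2 and 6 lower, beside 14.1% and 12% of all probe sets. Without replicates 1 and 3 of 8uvmo-3 the counts were 2 and 3. Pdcd1, which encodes PD-1, the receptor that dampens T cell receptor signals, read 7.85, 8.14, 7.74 and 8.14 in 8uvmo-2 and 12.69, 12.43, 12.62 and 12.51 in 8uvmo-3. Both clones were above 7 on every array, and the 8uvmo-3 mean was 24.2-fold higher (-4.59 ± 0.13, adjusted p = 6.75e-25). The dormant means were 5.98 and 11.94. Cd200, whose product engages an inhibitory receptor on myeloid cells, averaged 5.41 ± 0.29 against 7.65 ± 0.58 (-2.24 ± 0.17). Entpd1, which encodes the ectonucleotidase CD39, was higher in 8uvmo-2 by 1.23 ± 0.16, or 0.92 without replicates 2 and 4 of 8uvmo-3. Ctla4 was called lower in 8uvmo-2 (-1.31 ± 0.43, adjusted p = 0.0196) with overlapping arrays. Its call was lost without any one of 4 arrays, replicates 3 and 4 of 8uvmo-2 and replicates 2 and 4 of 8uvmo-3 (-1.21 to -1.15, adjusted p from 0.0578 to 0.068), and without the last pair together it was -0.90 (adjusted p = 0.257).

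Cytokine receptor genes were more evenly split, with 9 of 35 higher in 8uvmo-2 and 6 lower (median 0.03), beside 14.1% and 12% of all probe sets. The counts were 6 and 3 without replicates 1 and 3 of 8uvmo-3. Il7r, the receptor chain for the survival cytokine IL-7, read 11.19, 11.23, 10.90 and 10.99 in 8uvmo-2 and 8.82, 9.23, 8.87 and 9.13 in 8uvmo-3, 4.18-fold apart. It was high in both dormant clones (12.14 and 11.78), and the difference changed by 1.71 ± 0.19 (adjusted p = 1.54e-08). Il1r2, a decoy receptor for IL-1, averaged 9.86 ± 0.40 against 7.30 ± 0.42 (2.56 ± 0.33). Its dormant difference averages unlike 8uvmo-2 arrays, 6.73 and 7.70 in replicates 1 and 3 and 8.91 and 8.88 in replicates 2 and 4, and was 2.56 over all 4, 3.40 without the first set and 1.72 without the second. Tgfbr2, a chain of the TGF-beta receptor, was higher by 1.23 ± 0.10. In the opposite direction Ifngr1, the ligand-binding chain of the interferon gamma receptor, was lower in 8uvmo-2 by 1.41 on the log2 scale (9.04 ± 0.25 against 10.45 ± 0.36). Il20ra, a receptor chain for IL-20 family cytokines, stood at 4.96 ± 0.11 against 8.52 ± 0.42 (-3.56 ± 0.12).

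Of 20 TNF receptor genes, 2 were higher in 8uvmo-2 and 6 lower, beside 14.1% and 12% of all probe sets. Tnfrsf1a, the main TNF receptor, averaged 8.92 ± 0.15 against 6.79 ± 0.14 (2.13 ± 0.10), with a dormant difference of 2.51. Tnfrsf18, which encodes the costimulatory receptor GITR, was lower in 8uvmo-2 by a difference at the minimum (-1.01 ± 0.12), and -0.68 without replicates 1 and 3 of 8uvmo-3. Leaving out replicate 3 or 4 of 8uvmo-2, or replicate 1 or 3 of 8uvmo-3, brought it to between -1.0 and -0.87, under the minimum. Eda2r, a receptor for ectodysplasin, was called lower as well, with both means below 7, and was at -0.83 without replicates 2 and 4 of 8uvmo-3.

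Of 11 coreceptor and lineage genes, 5 were higher in 8uvmo-2 and 2 lower (median 0.02), and Cd4 and Satb1 were called. Cd8a averaged 12.58 ± 0.09 in 8uvmo-2 and 12.76 ± 0.05 in 8uvmo-3, and Cd8b1 12.09 ± 0.11 against 11.78 ± 0.03, both differences under 0.4 in size. Cd4 read 7.95, 8.32, 7.79 and 8.30 in 8uvmo-2 and 6.39, 6.41, 6.44 and 6.53 in 8uvmo-3. The arrays did not overlap, and the difference was 1.65 ± 0.16 (adjusted p = 2.96e-10), at least 2.13-fold. The activated IL13+ clones were at 8.00 (sAg1) and 10.59 (sAg3). Satb1, a chromatin organiser needed for lineage choice in the thymus, was 3.05-fold higher in 8uvmo-2 (11.02 ± 0.07 against 9.41 ± 0.09).

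Transcription factors of effector and memory T cells were lower in 8uvmo-2 in 11 of 30 cases and higher in 5 (median -0.19). Sox4, a high-mobility-group factor of lymphocyte development, read 6.49, 6.65, 6.81 and 6.73 in 8uvmo-2 and 10.98, 11.81, 11.28 and 11.93 in 8uvmo-3. The 8uvmo-2 arrays were all below 7, at least 22.6-fold under 8uvmo-3 (adjusted p = 3.93e-25), and the other 3 activated clones lay between 6.53 and 6.68. Myb (-1.07 ± 0.24) and Klf6 (-1.02 ± 0.079) were called near the minimum difference, and Rora was lower by 1.52 on the log2 scale. Without replicate 2 of 8uvmo-2 the value of Myb was -0.90. Klf6 was at -0.99 to -1.0, under the minimum, without any one of replicates 3 and 4 of 8uvmo-2 and 2 and 4 of 8uvmo-3, and at -0.94 without the last pair. The type 1 factor Tbx21, which encodes T-bet, averaged 10.97 ± 0.13 against 11.34 ± 0.09 (-0.38 ± 0.074), and the type 2 factor Gata3 9.06 ± 0.10 against 8.80 ± 0.05 (0.26 ± 0.074). Eomes, a relative of T-bet, was below 7 in both clones, at 5.61 and 6.59, and its difference of -0.99 became -1.49, past the minimum, without replicates 2 and 4 of 8uvmo-3. Ebf1 and Pou2af1, known from B cells, were higher in 8uvmo-2 by 2.00 ± 0.24 and 1.32 ± 0.096. The 8uvmo-3 arrays of Ebf1 read 6.13, 7.97, 7.11 and 7.98, and its difference was 1.32 without replicates 1 and 3 of 8uvmo-3 and 2.67 without replicates 2 and 4. At the same time the 5 B cell markers were below 7. Over the B and plasma cell list, 15 of 17 genes were below 7 in both clones, and the median difference was -0.04. The log2 of the summed linear levels of all 17 was 10.79 to 11.01 in 8uvmo-2 and 10.20 to 10.41 in 8uvmo-3. This sum includes Ebf1 and Pou2af1, the list members above 7, so it is not separate from their differences. The part of B cells in these differences was not tested.

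Type 1 and type 2 gene lists, also chosen with earlier results of these data known, leaned in opposite directions. Of 21 type 1 genes, 2 were higher in 8uvmo-2 and 10 lower (median -0.30). Of 23 type 2 genes, 9 were higher and 2 lower (median 0.13). Both leans differed between the sets of 8uvmo-3 arrays. The median level of the type 1 list was 11.43 and 11.25 in replicates 1 and 3 of 8uvmo-3 but 10.81 and 10.74 in replicates 2 and 4, against 10.78 to 10.97 in 8uvmo-2. That of the type 2 list was 7.45 and 8.14 in replicates 1 and 3 and 8.57 and 8.49 in replicates 2 and 4, against 8.58 to 8.84 in 8uvmo-2. Without replicates 1 and 3 of 8uvmo-3, 2 type 1 genes were higher and 6 lower (median -0.08) and 7 type 2 genes higher and 3 lower (0.16). Without replicates 2 and 4 the counts were 1 and 9 (-0.23) and 8 and 2 (0.26). The called members of the type 2 list were Il10, Dusp4, Hpgds and Il13. Dusp4 encodes a phosphatase of MAP kinases and Hpgds, a prostaglandin D synthase, had both means below 7. These lists share genes with others given here, such as Ccl5 and Tnf.

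Genes induced by the T cell receptor differed gene by gene and not as a block: 13 of 40 were higher in 8uvmo-2 and 14 lower (median 0.04). Spry1, a feedback inhibitor of receptor tyrosine kinase signalling, had the largest difference of the list (-2.18 ± 0.14), at 6.76 ± 0.12 against 8.94 ± 0.55 after activation and 6.24 against 6.42 before. Nr4a1, an early reporter of T cell receptor signals, was lower in 8uvmo-2 at 8.89, 9.61, 8.95 and 9.31 against 10.58, 10.27, 10.31 and 10.47, a 2.33-fold difference without overlap. Dusp4 was higher in 8uvmo-2 by 1.54 ± 0.14 and the activation marker Cd69 by 1.18 ± 0.13. The dormant difference of Dusp4 was 0.16 and that of Cd69 1.62.

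Plk2, which encodes a polo-like kinase and belongs to none of the lists, read 5.80, 6.04, 5.72 and 5.97 in 8uvmo-2 and 10.63, 10.70, 10.33 and 10.79 in 8uvmo-3. The dormant clones were both near 5 (5.14 and 5.31, adjusted p = 0.176). The activated clones lay at least 12.2-fold apart (adjusted p = 1.42e-29), and the difference changed by -4.56 ± 0.13 with activation (adjusted p = 7.59e-24). In sAg1, sAg3 and CD8bm1 the activated means were 6.17, 6.46 and 5.55.

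Among the largest excesses of 8uvmo-2, Mmp13, which encodes the collagenase MMP-13, also opened with activation. It read 10.42, 9.93, 9.32 and 9.15 in 8uvmo-2 and 5.86, 5.87, 5.76 and 5.96 in 8uvmo-3. The dormant means were 5.79 and 5.31, the activated gap was at least 6.52-fold, and the change of the difference was 3.37 ± 0.31 (adjusted p = 3.49e-10). Tfcp2l1, a transcription factor known from pluripotent cells, averaged 10.36 ± 0.14 against 6.57 ± 0.09, and its dormant difference was 0.58. It was at 9.31 to 10.97 in the other 3 activated clones, so that 8uvmo-3 was the lowest of 5. Scg2, which encodes a granin of secretory vesicles, averaged 10.57 ± 0.27 against 7.20 ± 0.09 (10.4-fold), and the adaptor gene Sh2d1b1 8.61 ± 0.63 against 4.94 ± 0.21.

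Other large excesses of 8uvmo-2 were present in both states. Nrp1, a coreceptor for semaphorins and VEGF, read 10.95, 10.95, 10.31 and 10.85 in 8uvmo-2 and 6.61, 6.28, 6.54 and 6.58 in 8uvmo-3 (at least 13.6-fold). The difference was 4.26 ± 0.12, and 3.44 in the dormant state. Activated Nrp1 was at 9.81 in sAg1, 5.83 in sAg3 and 5.52 in CD8bm1. Acpp, which encodes an acid phosphatase that can generate adenosine, averaged 12.44 ± 0.21 against 8.48 ± 0.33, 15.5-fold, and Asb2, a substrate receptor of a ubiquitin ligase, 11.35 ± 0.45 against 7.41 ± 0.15. Activated Acpp was also high in sAg1 (10.90) and sAg3 (12.00) and was at 8.83 in CD8bm1, whereas Asb2 lay between 7.04 and 7.56 in these clones. The phosphate transporter gene Slc34a2 stood at 9.43 ± 0.11 against 5.58 ± 0.03, and its level in the other 3 activated clones was 5.40 to 5.52. Fcrl1, a receptor-like gene known from B cells (3.72 ± 0.15), and Adgrg3, an adhesion G protein-coupled receptor (3.36 ± 0.074), were also among the 15 largest. In the other 3 activated clones Fcrl1 was at 5.78 to 7.51. Adgrg3 was at 10.12 to 11.53 there, so that 8uvmo-3 (6.83) was the lowest clone.

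On the side of 8uvmo-3, the differences beyond those of the receptors were also mostly present in both states. Adgre5, which encodes the adhesion receptor CD97, read 5.73, 6.15, 6.14 and 6.03 in 8uvmo-2 and 11.99, 11.56, 11.72 and 11.50 in 8uvmo-3. It was at 6.03 to 6.33 in the other activated clones, and the dormant difference was -6.12. Clgn, a chaperone of the endoplasmic reticulum known from testis, averaged 5.51 ± 0.09 against 11.21 ± 0.25, at least 18.5-fold. It was also high in activated sAg1 (10.22) and sAg3 (11.52), and low in CD8bm1 (5.53). Krt20, an epithelial keratin, averaged 5.82 ± 0.12 against 10.59 ± 0.09 and was at 5.64 to 5.78 in the other 3 activated clones. Slc43a3, a purine nucleobase transporter, and Bex3 were lower in 8uvmo-2 by 4.56 and 3.92 on the log2 scale, but here the other 3 clones resembled 8uvmo-3 (10.63 to 11.38 and 10.85 to 11.15). Ms4a4c, a membrane-spanning gene of the Ms4a cluster, averaged 7.88 ± 0.20 against 11.51 ± 0.51 (12.4-fold). Its log2 difference was -3.63 after activation and -1.87 in the dormant state. Zc3h12c, which encodes the RNA-degrading Regnase-3, differed by -3.66 ± 0.18, and its second probe set gave -4.04. Its activated level was 10.55 in sAg1, 5.76 in sAg3 and 8.11 in CD8bm1.

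Of 26 cytotoxic granule genes, 7 were higher in 8uvmo-2 and 3 lower (median 0.11). Gzmc, a granzyme, had the widest difference, with 12.64, 12.54, 12.21 and 12.35 against 10.82, 10.26, 10.54 and 10.33 (3.86-fold, without overlap). Its log2 difference was 1.95 ± 0.26 after activation and 4.66 in the dormant state. The change of -2.71 ± 0.37 was called (adjusted p = 1.12e-06). Gzmn was called at 1.17 ± 0.27, and 0.99 without replicate 1 of 8uvmo-2. Gzmc and Gzmn have close relatives in the same gene cluster, and cross-hybridisation between their probe sets was not tested.

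Of 15 serpins and other protease inhibitors, 6 were higher in 8uvmo-2 and 3 lower (median 0.17). Serpinb6a averaged 9.34 ± 0.10 against 6.10 ± 0.26 (3.24 ± 0.095, at least 5.05-fold), with a dormant difference of 2.83. Serpinb9e, a relative of the granzyme B inhibitor, averaged 7.42 ± 0.73 against 4.62 ± 0.24 after activation and 4.00 against 3.86 before. Timp1, an inhibitor of matrix metalloproteinases, and Serpinb1b were called higher, with both means below 7. Cross-hybridisation within the serpin family was not tested.

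Genes of cholesterol and fatty acid synthesis formed the clearest metabolic contrast, and it turned with activation. In the activated state 16 of 29 measured members were lower in 8uvmo-2 and 4 higher, with a median difference of -0.36. In the dormant state, where 31.3% of all probe sets passed an adjusted p under 0.05 (15.8% higher in 8uvmo-2 and 15.5% lower), 21 of the 29 were higher in 8uvmo-2 and 1 lower, with a median of 0.65. The change of the difference passed for 26 members, all towards a lower value in 8uvmo-2 (median -1.16), against 15.8% of all probe sets in either direction, 8.53% upward and 7.26% downward. Over all genes, the median change was 0.00. Without dormant replicates 1 and 3 of 8uvmo-2 the count was 24, and without replicates 2 and 4 it was 25.

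Nsdhl, an enzyme of late sterol synthesis, read 8.68, 8.66, 8.93 and 8.95 in 8uvmo-2 and 10.42, 10.44, 10.62 and 10.03 in 8uvmo-3, a 2.97-fold difference without overlap. The dormant means were 9.36 and 9.47 (adjusted p = 0.638), and the change was -1.46 ± 0.19 (adjusted p = 7.07e-07). Hmgcs1, which makes HMG-CoA for the mevalonate pathway, read 10.74, 10.49, 10.93 and 10.94 against 11.99, 11.80, 12.09 and 11.64 (-1.10 ± 0.094), and -0.94 without replicates 1 and 3 of 8uvmo-3. Named after their values were seen, Srebf2, the transcription factor of the sterol pathway, differed by -0.96 and Fdft1, squalene synthase, by -0.94. Scd1, a desaturase of fatty acids, went against the list: 8.33, 8.17, 8.48 and 7.94 in 8uvmo-2 against 5.16, 5.38, 5.28 and 5.38 in 8uvmo-3, at least 2.35-fold. It too moved down relative to 8uvmo-3 with activation, from a dormant difference of 5.23, and its level in the other 3 activated clones was 5.23 to 5.69.

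**Figure D3:**
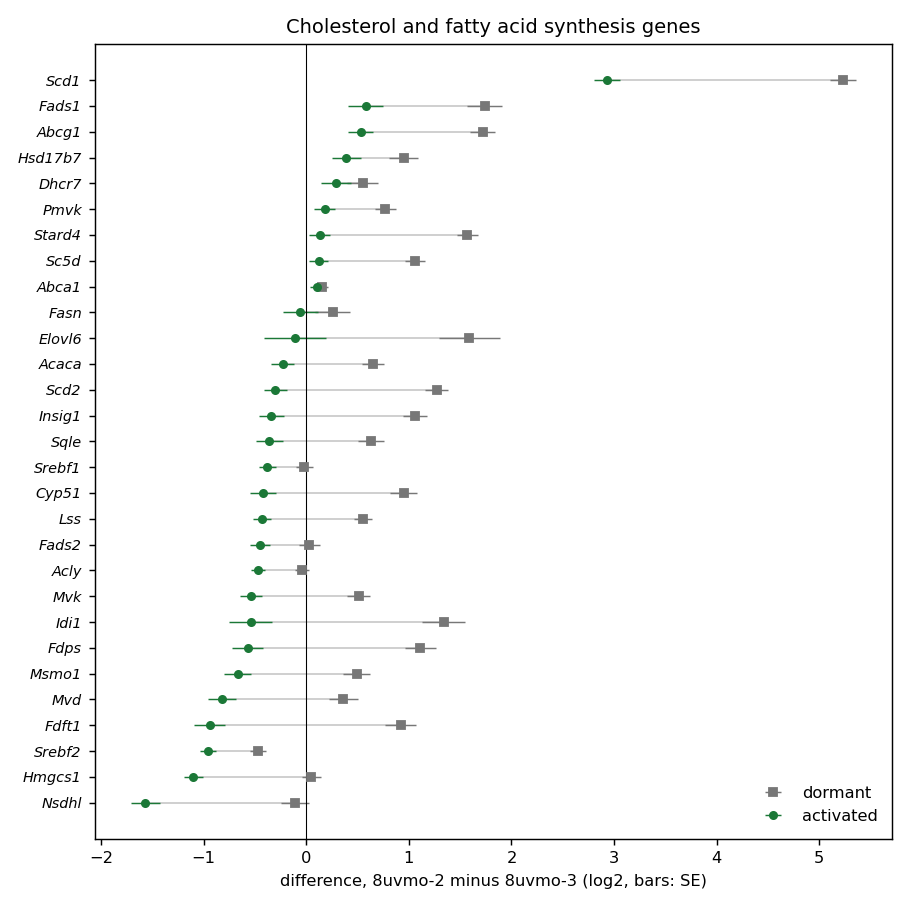
Difference between the clones (x axis, log2, bars are SE of the limma fit) for each of the 29 measured genes of cholesterol and fatty acid synthesis (y axis), with grey squares for the dormant and green circles for the activated comparison, joined by a line. The median moves from 0.65 in the dormant to -0.36 in the activated comparison, and Scd1 lies apart at 5.23 and 2.93.

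Other metabolic and proliferation lists had smaller shares of members past the test in the activated comparison than the cholesterol list. Over all 19938 genes tested, 5221 passed. Some of these lists lay above that share, such as the respiratory chain (13 of 29), and others below it, such as the cell cycle (4 of 48). Of 48 cell cycle genes, 2 were higher and 2 lower (median 0.02). Cdkn2c, a cyclin-dependent kinase inhibitor, was the called member, 3.31-fold higher in 8uvmo-2 (10.04 ± 0.20 against 8.31 ± 0.06). In the dormant state 13 cell cycle genes were higher and 2 lower, but this rested on the 2 sets of dormant 8uvmo-2 arrays: the counts were 2 and 13 without replicates 1 and 3, and 40 and 3 without replicates 2 and 4. Of 39 ribosome biogenesis genes, 6 were higher and 4 lower (median 0.03), but the direction differed between the sets of 8uvmo-3 arrays, with 2 higher and 7 lower without replicates 1 and 3 and 9 higher and 2 lower without replicates 2 and 4. The dormant counts were 1 higher and 26 lower. Their difference changed upward with activation in 22 cases and downward in 0, and upward in 28 and 11 cases without either set of dormant arrays. Among 32 genes of glycolysis and hypoxia, 2 were higher and 4 lower, or 1 and 2 without replicates 1 and 3 of 8uvmo-3. Aldoc, an aldolase, was lower in 8uvmo-2 with 6.93 ± 0.21 against 9.48 ± 0.76, and replicates 1 and 3 of 8uvmo-3 were the highest (10.22 and 9.97 against 9.15 and 8.56). The unfolded protein response list had 2 members higher and 4 lower of 25. Slc1a4, a neutral amino acid transporter, was the called member of the amino acid list (1.47 ± 0.16), in which 5 of 27 were higher and 4 lower. No member was called among 23 genes of the BCL2 family and apoptosis (8 higher and 1 lower, median 0.13), 29 of the mitochondrial respiratory chain (8 and 5, median 0.03, and 5 and 3 without replicates 1 and 3 of 8uvmo-3) or 15 of the T cell receptor complex (5 and 2, median 0.08). Calls were few over all genes as well, 356 higher and 293 lower of 19938. At that share a list of this size may well hold none.

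Antigen presentation and interferon-stimulated genes were mixed, with 7 higher and 6 lower of 23, and 6 higher and 7 lower of 34. The second list had 6 higher and 3 lower without replicates 1 and 3 of 8uvmo-3, and 3 higher and 8 lower without replicates 2 and 4. Isg20, an interferon-induced exonuclease, was 5.5-fold higher in 8uvmo-2 (10.85 ± 0.07 against 8.39 ± 0.46), and Ddx58, which encodes the RNA sensor RIG-I, 2.8-fold. Mx1, an antiviral GTPase, was lower by 1.18 on the log2 scale with overlapping arrays. Its difference was -0.89 without replicate 1 of 8uvmo-3, and without replicates 1 and 3 of 8uvmo-3 it was -0.48 (adjusted p = 0.167). H2-T24, a class I-like gene, was higher in 8uvmo-2 by 1.20 ± 0.16 (9.71 against 8.51). The class II genes H2-Aa and H2-Ab1 were called higher in 8uvmo-2, but 1 array stood apart from the other 7: H2-Aa read 5.22, 6.05, 8.78 and 6.21 and H2-Ab1 6.25, 6.69, 8.69 and 6.64 in 8uvmo-2, against 5.16 to 5.46 and 5.86 to 6.08 in 8uvmo-3. Without replicate 3 of 8uvmo-2 the differences were 0.48 (adjusted p = 0.208) and 0.54 (adjusted p = 0.0114). H2-Aa also lost its call without replicates 1 and 3 of 8uvmo-3 (1.16, adjusted p = 0.108) or 2 and 4 (1.28, adjusted p = 0.0619). Lum, an extracellular matrix gene of fibroblasts, read 9.23 on that array and 6.25 to 6.47 on the other 3, and 6.86, 10.17, 8.58 and 9.85 in 8uvmo-3 (-1.79 ± 0.46, and -0.64 with an adjusted p of 0.389 without replicates 2 and 4 of 8uvmo-3). Dcn, another such gene, was called lower in 8uvmo-2 at -1.04 ± 0.14 with both means below 7. It was under the minimum without replicate 2 (-0.91) or 4 (-0.90) of 8uvmo-3, and was at -0.64 without both. Over the whole stromal and epithelial list, 11 of 17 genes were below 7 in both clones. The log2 of the summed linear levels of all 17, Lum and Dcn included, ran from 10.82 to 11.29 in 8uvmo-2 and from 10.99 to 11.61 in 8uvmo-3. The part of other cells in these results was not tested.

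The activated and dormant comparisons share no arrays and can be set side by side. In the dormant state 1075 probe sets (4.59%) were called, 593 higher in 8uvmo-2 (2.53%) and 482 lower (2.06%). Called in both states were 449 probe sets, 447 in the same direction, which is 61.7% of the activated and 41.6% of the dormant calls. Of the 725 activated calls, 276 had a dormant difference under 1 in size. For 115 of these 276 a change of the difference with activation was called, and for 161 it was not. Among all 725, it was called for 220. A change of the difference with activation was called for 567 probe sets (2.42%), 289 towards 8uvmo-2 (1.23%) and 278 towards 8uvmo-3 (1.19%).

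Of the dormant calls, 624 had an activated difference under 1 in size. Ccl3 was at 9.44 in dormant 8uvmo-2 and 5.98 in dormant 8uvmo-3 and reached 14.25 in both, near the top of the scale. Cpa3, a carboxypeptidase of mast cells, stood at 10.58 against 4.92 in the dormant clones and below 7 in both after activation (5.66 and 4.58). Its activated difference of 1.08 ± 0.31 was 0.84 without replicate 1 of 8uvmo-2 (adjusted p = 0.0517) and 1.00 without replicates 1 and 3 of 8uvmo-3 (adjusted p = 0.0639). From the 40 genes with the largest changes, named after their values were seen, the interferon-inducible Ifi208 had a dormant difference of 3.92 and an activated one of 0.18. Slamf6, a receptor of the SLAM family, went from -4.51 to -0.81. Crtam, an activation-induced adhesion receptor, went from -2.80 to 0.03, with activated means of 11.39 and 11.36. Gzme, a granzyme, went from 2.90 to 0.19 (activated means 13.46 and 13.27).

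**Figure D4:**
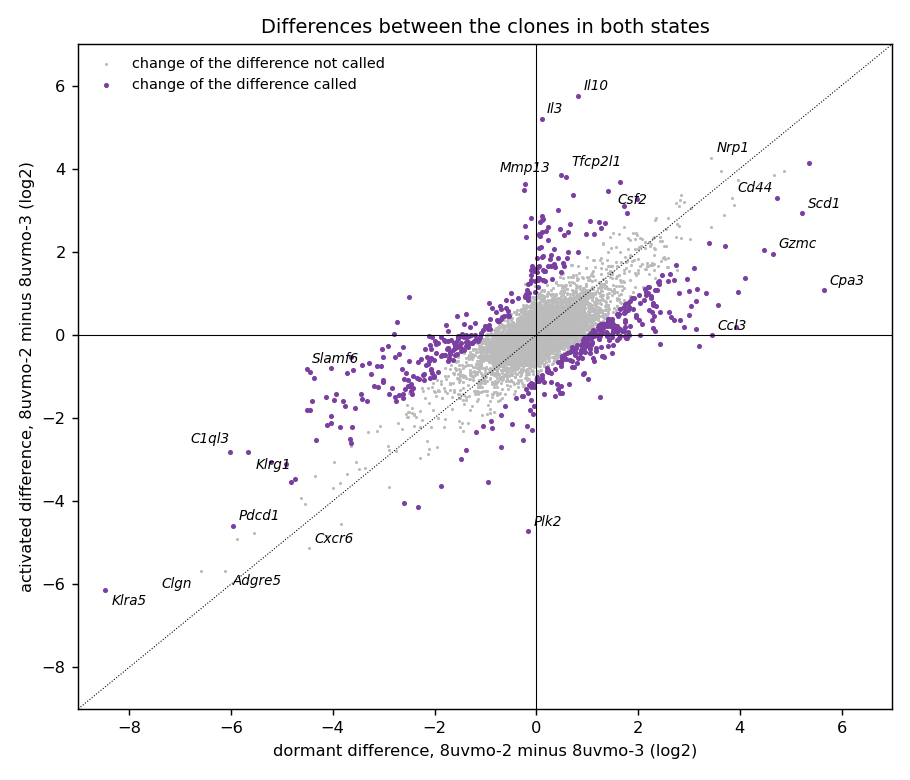
Difference between the clones in the activated state (y axis, log2) against the dormant state (x axis, log2) for each of 23410 tested probe sets; purple points are the 567 whose change of the difference was called, and the dotted line marks equal differences. Il10, Il3, Mmp13, Tfcp2l1 and Plk2 lie near the vertical axis, with dormant differences from -0.17 to 0.82, and Klra5, Clgn, Adgre5 and Cxcr6 lie far out in both states.

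Antigen receptor segments, small RNAs and Xist were looked at as marks of a clone. Of 85 probe sets for antigen receptor gene segments, 2 were called, where 3.1% of all tested probe sets were. Trgv1, a variable segment of the gamma chain, averaged 6.66 ± 0.24 in 8uvmo-2 and 10.72 ± 0.19 in 8uvmo-3 (-4.06 ± 0.11), with a dormant difference of -4.54. The other, shared by Trgv4 and Trgv6, was below 7 in both clones. No probe set of 352 for microRNAs and of 96 for small nucleolar RNAs was called, against the same 3.1% of all tested probe sets. Xist, the RNA that silences an X chromosome in female cells, read 5.67, 5.61, 5.38 and 5.67 in 8uvmo-2 and 10.28, 9.50, 9.67 and 9.49 in 8uvmo-3, at least 6.66-fold. The difference depended on the state as well. Xist was at 8.22 against 10.55 in the dormant clones, a difference of -2.33, and the change with activation was called (-1.82 ± 0.32, adjusted p = 9.17e-05). Its activated level in the other 3 clones was 5.15 to 5.63.

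Small shifts ran along whole chromosomes. Over all their probe sets, chromosome medians of the difference ran from -0.097 (chromosome 15) and -0.082 (chromosome 10) to 0.058 (chromosome 1) and 0.063 (chromosome 5). They lay further from 0 among the 10676 probe sets with both activated means at least 7. There the median difference was 0.00 over all chromosomes, while single chromosomes ranged from -0.25 to 0.26. Chromosome 1 was highest under this level filter: 74.5% of its 611 probe sets were higher in 8uvmo-2, with a median of 0.26 (1.19-fold). Chromosomes 18 (0.20), 17 (0.18), 5 (0.16) and 3 (0.15) followed. Chromosomes 15 and 10 were lowest at -0.25 and -0.24, with 81.2% of 436 and 81.9% of 536 probe sets lower in 8uvmo-2. For 15 of 20 chromosomes the arrays of the clones did not overlap in the median, and 18 of 20 had the same sign in the dormant comparison, for which chromosome 1 gave 0.22 and chromosome 15 -0.24, all with the filter.

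With the same filter and set against the mean of the other 3 activated clones, chromosome 1 stood at 0.27 in 8uvmo-2 and 0.01 in 8uvmo-3, and chromosome 17 at 0.19 and 0.03. Chromosomes 10 and 15 stood at 0.01 and -0.00 in 8uvmo-2 and at 0.26 and 0.26 in 8uvmo-3. These values are a description with no test, and they are small beside the called differences.

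**Figure D5:**
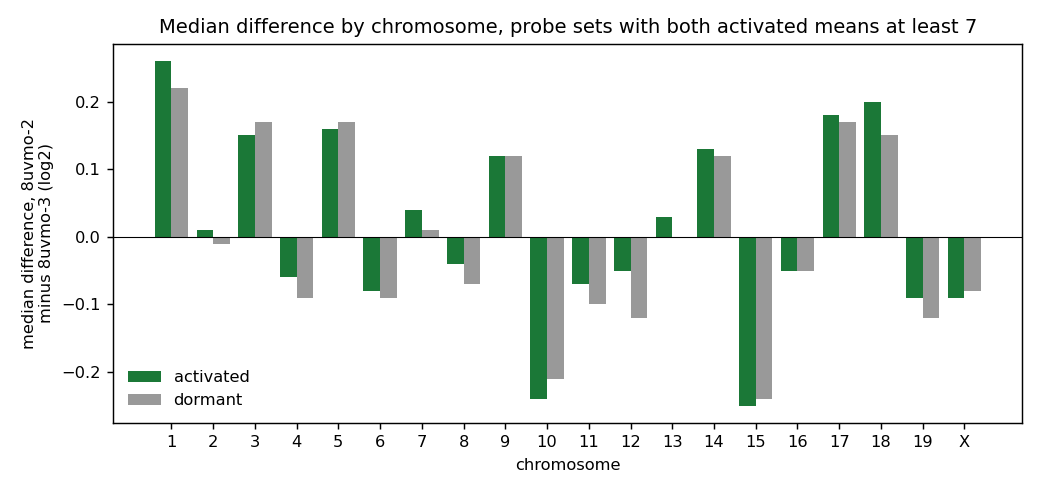
Median difference between the clones (y axis, log2) for the probe sets of each chromosome (x axis) with both activated means at least 7, as green bars for the activated and grey bars for the dormant comparison. Bars of the same chromosome are alike in both states, from 0.26 and 0.22 for chromosome 1 to -0.25 and -0.24 for chromosome 15.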

How the data were processed

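RNA (100 ng per array) from 5 mouse CD8 T cell clones, each dormant and after anti-CD3, was hybridised to Affymetrix gene arrays (38 arrays in 10 groups). The authors deposited log2 values per probe set. Partek and RMA, a method that subtracts background, normalises and summarises probes, are named without versions per the submitters' processing notes, and whether all arrays were normalised together is not given in the sources used here. The number of arrays, 4 per state for each of the compared clones, limits the precision. The highest values lie near saturation and the lowest near background, which can compress differences.

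Of 35556 rows, 12146 carry no gene name and were left out, leaving 23410 probe sets (21789 with 1 symbol, 1621 with several, and none named from the latter except a shared receptor segment). Symbols came from the platform annotation, and 21698 rows matched the GRCm38.p6 gene table. A group-means model over all 38 arrays was fitted with limma 3.58.1 (R 4.3.3; lmFit, eBayes with a mean trend), and p-values were adjusted by Benjamini-Hochberg over all tested probe sets. The same fit gave the dormant comparison and the change of the difference with activation. Lists were counted at an adjusted p under 0.05 over 1 probe set per symbol, the one with the highest mean. The scripts were tested on simulated data. The 34 lists held 888 symbols, of which 814 were measured.

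Named genes were a set of key genes, the 15 largest called differences per direction without overlap (leaving out predicted loci, receptor segments and small RNAs), and up to 4 called members per list. Others are marked where named. Members, lists and key genes were chosen with earlier results of these data known. The labels give no shared origin for equal replicate numbers. Deviations of same-numbered arrays correlated at 0.2828, 0.1722, 0.1032 and -0.0386 between the activated clones. Between the dormant clones the values were 0.4353, -0.0208, -0.1393 and 0.302. They were 0.1129, 0.2327, 0.2372 and 0.1329 between dormant and activated 8uvmo-2, and -0.0893 to 0.0502 between dormant and activated 8uvmo-3. Not every pair was over 0.1, so the fit has no block, and the blocked fit is an alternative. Alternatives covered the minimum difference, dim probe sets, scaling, variance model, arrays in the fit, probe sets per gene, the replicate block and arrays left out. Promoter sequences are from RefSeq on GRCm38.p6, in which 87 of the 106 named genes have an entry.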

Additional observations from a re-analysis of the deposited data

Results flagged for a closer look

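For 49 of the 106 named genes the difference between the clones itself differed between the dormant and the activated state, with an adjusted p under 0.05 and a change of at least 1 in the limma fit. Values are the activated minus the dormant difference (log2). The difference moved towards 8uvmo-2 with activation for Il3 (5.10), Il10 (4.94), Mmp13 (3.37), Tfcp2l1 (3.21), Klrg1 (2.83), Serpinb9e (2.66), Scg2 (2.65), Klra5 (2.33), Csf2 (2.05), Sh2d1b1 (2.04) and Hbegf (2.00), and less widely for Il7r (1.71), Tnfsf14 (1.59), Cxcl2 (1.57), Timp1 (1.43), Dusp4 (1.38), Pdcd1 (1.36), Ccl12 (1.34), Pdgfa (1.34), Il2 (1.34), Ccl20 (1.31), Pou2af1 (1.28), H2-Ab1 (1.26), Gpr55 (1.17), Il13 (1.12) and Cd4 (1.10). It moved towards 8uvmo-3 for Cpa3 (-4.58), Plk2 (-4.56), Ccl3 (-3.46), Gzmc (-2.71), Cd226 (-2.60), Scd1 (-2.30), Ccr2 (-2.26) and Spry1 (-2.0), and less widely for Xist (-1.82), Ms4a4c (-1.76), Ctla4 (-1.73), Hpgds (-1.61), Klrb1f (-1.58), Nsdhl (-1.46), Cd200 (-1.37), Itgax (-1.23), Itgb7 (-1.22), Tnfsf11 (-1.20), Hmgcs1 (-1.16), Nr4a1 (-1.08), Tnfsf10 (-1.08), Tnfrsf18 (-1.02) and Tnf (-1.01). The 2 sets of dormant 8uvmo-2 arrays bear on these values. Without either set 41 of the 49 kept the call, while Cd4, H2-Ab1, Pdgfa, Tnf and Tnfsf10 lost it without replicates 1 and 3, and Ctla4, Itgax and Tnfrsf18 without replicates 2 and 4. The ends of the scale also bear on some changes. Klra5 was below 7 in 8uvmo-2 in both states (3.58 dormant and 5.99 activated). Ccl3 averaged 14.25 in both activated clones, near the top. Ccl12, Timp1, Hpgds and Cpa3 had both activated means below 7.

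A single array stood apart from the other 3 of its group in 11 of the 212 gene and group combinations checked with Dixon's test. Chance alone gives about 1 in 20. In activated 8uvmo-2, replicate 1 was highest for Acpp (12.75), Gzmn (7.80) and Cpa3 (6.39), and replicate 3 was highest for Lum (9.23) and Ebi3 (8.99) and lowest for Nrp1 (10.31) and Zc3h12c (5.61). Replicate 2 was lowest for Itgb7 (7.88). In activated 8uvmo-3, replicate 1 was highest for Cd69 (10.23) and Cd44 (8.29), and replicate 2 for Tnfrsf1a (7.0). H2-Aa and H2-Ab1, whose calls rest on replicate 3 of 8uvmo-2, did not pass this test.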

How the results depend on the processing

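Without a minimum difference, 6116 probe sets passed in the activated comparison, 7339 in the dormant comparison and 3697 for the change of the difference. With limma's treat test against a difference of 1 the counts were 345, 542 and 134. Leaving out 1 array at a time gave 701 to 763, 1054 to 1177 and 552 to 624. The change of the difference was called for 878 probe sets without dormant 8uvmo-2 replicates 2 and 4 and for 732 without replicates 1 and 3, and the dormant counts were then 1368 and 1208. Leaving out activated 8uvmo-3 replicates 1 and 3 gave 697 activated calls and leaving out 2 and 4 gave 835, alternatives chosen after seeing the data. Counts under the other scalings, variance models, array and probe set choices were within 1.5 times the main ones.

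With the replicate number as a block the counts were 725, 1075 and 567, as without it, and no call of a named gene changed. Whether the numbers mark a shared origin is not settled: 2 of 4 activated 8uvmo-2 arrays and 3 of 4 activated 8uvmo-3 arrays correlated best with their own number in the other clone, and the labels do not say what a number marks.

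Among lists, 7 cell cycle genes passed after quantile normalization (4 in the main analysis), 2 erythroid genes and 1 liver, neuron and muscle gene after quantile normalization or median centring (1 and 0), and 2 macrophage genes after quantile normalization (1). Without replicates 1 and 3 of activated 8uvmo-3, chosen after seeing the data, the numbers past the test were 5 TNF ligands (9), 9 cytokine receptors (15), 3 glycolysis genes (6), 5 inhibitory receptors (9), 8 respiratory chain genes (13), 0 erythroid (1), 0 granulocyte (1) and 2 macrophage genes (1). Without replicates 2 and 4 they were 12 genes of the type 17, regulatory and follicular list (7), 0 erythroid (1) and 2 macrophage genes (1). Chromosome medians over all probe sets were 0.058 for chromosome 1, 0.053 for 3, 0.063 for 5, -0.038 for 6, 0.032 for 9, -0.082 for 10, -0.040 for 11, -0.024 for 12, 0.025 for 14, -0.097 for 15, -0.033 for 16, 0.050 for 17, 0.053 for 18, -0.037 for 19 and -0.035 for X. Among probe sets with both means at least 7 they were, in size, larger: 0.26 for chromosome 1, 0.15 for 3, 0.16 for 5, -0.08 for 6, 0.12 for 9, -0.24 for 10, -0.07 for 11, -0.05 for 12, 0.13 for 14, -0.25 for 15, -0.05 for 16, 0.18 for 17, 0.20 for 18, -0.09 for 19 and -0.09 for X. The cause was not tested.

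Of the 106 named genes, none changed its call under median centring, without a variance trend, with 1 probe set per symbol or over all rows of the table. None of the 92 called ones reversed its direction under any alternative run. Uncalled differences near 0 could change sign, as for Il5 (0.01, and -0.03 without replicates 1 and 3 of activated 8uvmo-3). The treat test ended 32 calls, among them those of Il2, Il13, Ccl5, Nr4a1, Cd69, Hmgcs1 and Ifngr1, and all 32 are listed in the report. A fit on the 8 arrays of the comparison alone ended those of H2-Aa, H2-Ab1, Klrb1f and Lum, and array weights those of H2-Ab1 and Cpa3. Among probe sets near background, a difference may be compressed, and 68 of the 725 calls had both means below 7.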

Other observations

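Called genes that lie next to each other on a chromosome, with at most 1 uncalled measured gene between them, formed 6 runs of at least 3. They were named after their values were seen. The longest held 5 genes of chromosome 16, all lower in activated 8uvmo-2: Lamp3 (-1.95), B3gnt5 (-3.07), A930003A15Rik (-1.47), Klhl6 (-1.83) and Klhl24 (-2.31), with dormant differences from -5.21 to -1.43. Of these, B3gnt5 makes a lacto-series glycolipid and Klhl6 is an adaptor known from B cell signalling. A run of 4 on chromosome 19 belongs to the Ms4a cluster of membrane-spanning genes, with Ms4a4c (-3.63), Ms4a4b (-1.43), Ms4a6c (-1.15) and Ms4a6b (-1.66). On chromosome 13, 4930486L24Rik (1.79), Ctla2b (1.56) and Ctla2a (2.44) were higher in 8uvmo-2. The last 2 encode relatives of cysteine protease propeptides.

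The cystatin A family gave another run on chromosome 16, called higher in activated 8uvmo-2: Csta2 (1.31), Stfa2 (1.65) and Stfa3 (2.11) had dormant differences of 0.12, 0.05 and 0.09. All 3 had both activated means below 7. Chromosome 10, which has the second lowest median difference of the chromosomes, held 2 runs lower in 8uvmo-2, of Pip5k1c (-1.08), Tbxa2r (-1.02) and Gipc3 (-1.13), and of Cdk17 (-1.15), Lta4h (-1.43) and Amdhd1 (-1.25). Lta4h makes the neutrophil attractant leukotriene B4. Without replicates 1 and 3 of activated 8uvmo-3, Ms4a6c (-0.75), Tbxa2r (-0.90), Gipc3 (-0.91) and Amdhd1 (-0.94) were no longer called, and without replicates 2 and 4 Csta2 (0.79) was not. Neighbouring members of a family can share probe sequence, which was not tested.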
